A study of Mus musculus with 36 samples.

Results

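Of the 105005 regions obtained by merging the ATAC-seq peaks of all 36 libraries wherever they overlapped by at least 1 bp, 5335 were overlapped by a peak in every library. These regions are called shared regions here, and because they were chosen on the calls themselves, the sharing is a description and is not tested. ATAC-seq maps open chromatin by cutting it with a transposase and sequencing the fragments. The libraries came from 8 sorted bone marrow fractions of female C57BL/6 mice aged 10 weeks (young) or 20 months (aged). Lin- Sca-1+ c-kit+ cells were divided into hematopoietic stem cells (HSCs; CD34- CD150+ CD48- Flt3-) and the multipotent progenitors MPP1 (CD34+ CD150+ CD48- Flt3-), MPP2 (CD34+ CD150+ CD48+ Flt3-), MPP3 (CD34+ CD150- CD48+ Flt3-) and MPP4 (CD34+ CD150- CD48+ Flt3+). Lin- Sca-1- c-kit+ cells were divided into granulocyte-macrophage progenitors (GMPs; FcgR+ CD34+) and megakaryocyte-erythrocyte progenitors (MEPs; FcgR- CD34-), and common lymphoid progenitors (CLPs) were IL-7 receptor-positive cells with low Sca-1 and c-kit. HSCs gave 4 libraries per age and every other fraction gave 2 per age, each from 20000 cells. The study describes marrow that was pooled and then sorted in duplicate, so libraries of 1 group may share animals, and the p-values below then measure only the spread between libraries.

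Open chromatin marks places where nucleosomes leave the DNA free for regulatory proteins. Promoters of genes that every cell needs tend to lie in CpG islands, stretches rich in the dinucleotide CG that are bound by broadly expressed factors and accessible in most cell types, whereas distal enhancers are mostly opened by lineage factors such as PU.1, GATA and C/EBP proteins in some cell types and not in others. In blood formation a stem cell passes through multipotent stages to committed progenitors, and regions open in all of these stages form the common part of their accessible genomes.

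The shared regions most often lay over transcription start sites, and short stretches of their sequence show which motifs lay under the summits. The lines below give 30 reference bases each (mm10/GRCm38, 5′ to 3′ on the strand named), with the motif in capitals, at promoters of shared regions that had a high fold enrichment and held the motif within 100 bp of the median summit: a CCAAT box, an SP/KLF box (GGGGCGGGG), an ETS site (CCGGAAGT), the palindromic sites of NRF1 and ZBTB33, a cyclic AMP response element (CRE, TGACGTCA) and a YY1 site. A match is a description of the letters and not evidence of binding.
Tmem218 promoter, CCAAT box, chr9:37208238-37208267, minus strand: aatttaagatggaCCAATcaaagccgccct
Miip promoter, SP/KLF box, chr4:147868576-147868605, plus strand: ggctaaggctGGGGCGGGGcctccgccgct
Gins4 promoter, ETS site, chr8:23237772-23237801, minus strand: ttccccgccttCCGGAAGTatgttctatag
Nfxl1 promoter, NRF1 site, chr5:72559777-72559806, plus strand: aatgctcagtGCGCATGCGCggtcgttcgc
Mre11a promoter, ZBTB33 site, chr9:14784650-14784679, plus strand: catcaatggaTCTCGCGAGAagtacggatg
St7 promoter, CRE, chr6:17749158-17749187, plus strand: tgcagtgtcccTGACGTCAtccggcgtatg
Cdk5rap2 promoter, YY1 site, chr4:70410409-70410438, minus strand: agcgccgggaAAGATGGCGGcggctgcggt

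Among the distal shared regions that differed between fractions, described below, C/EBP letters (TTNNGCAA, N being any base) lay 37 bp from the median summit near Adnp, 60 bp near Tnks, 122 bp in the Abhd6 intron, 125 bp near Scaf8, 190 bp near Tusc1 and 265 bp near Tnfaip3. This loose motif was searched here over the whole region, and the regions are listed because they held it. Within 100 bp of the summit it was found in 5.67% of shared and 14.4% of other regions with no protein-coding start. The listed regions include gains and losses, and nothing is read from their number. The region near Irf2 held the letters of an ETS site at 78 bp, and the one near Haao a CCAAT box at 5 bp. Stretches of 2 regions low in CLPs are shown because they hold motifs of blood and stimulus-driven factors within 30 bp of the summit. The intronic region of Ldlrad3, low in CLPs, held a PU.1 site (GAGGAAGT) and a GATA site (AGATAAG), and the region upstream of Tbc1d31, also low in CLPs, held an AP-1 site (TGANTCA). The region near Abcb11, among the 5 shared regions with the highest fold enrichment, is shown because its 30 bases are identical to positions 11613 to 11642 of the mitochondrial genome on the minus strand, and it has no motif in capitals.
Ldlrad3 intron, PU.1 site, chr2:102037285-102037314, plus strand: gaggacagaaaGAGGAAGTctcctgcctac
Ldlrad3 intron, GATA site, chr2:102037246-102037275, minus strand: tctgtaaaagagAGATAAGcacagagttgc
Tbc1d31 upstream, AP-1 site, chr15:57906807-57906836, plus strand: ggtcacagagcTGAGTCAtcaacggaatga
Abcb11 upstream, mitochondrial match, chr2:69355538-69355567, plus strand: catgaattagcagttcttgcaatctttctt

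The shared regions were mostly promoters. A promoter was taken as 1000 bp upstream to 100 bp downstream of the start of a protein-coding gene, and 3813 of the 5335 shared regions (71.5%) were assigned to one, against 8.91% of the 99670 regions called in 1 to 35 libraries. Another 330 (6.19%) lay in a 5′-UTR, 233 (4.37%) in a coding exon, 474 (8.88%) in an intron, 4 (0.0750%) in a 3′-UTR and 481 (9.02%) between genes. The other regions were mainly intronic (42.2%) or intergenic (43.6%). A protein-coding start site lay inside 4549 shared regions (85.3%), and inside 8.48% of the others. Starts on both strands, the arrangement of a bidirectional promoter, were found in 594 shared regions (11.1%) and in 0.340% of the others. Regions merged from more libraries are wider and leave more room for a start, and the part of width in these shares was not tested. Of the 786 shared regions with no protein-coding start, 235 (29.9%) held the start of some other annotated transcript, against 3.71% of the other regions with no protein-coding start, and 551 held none.

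The promoter share climbed with the number of libraries that called a region. It was 4.34% among 19334 regions called in 1 library, 4.21% in 2 to 5, 6.30% in 6 to 11, 9.15% in 12 to 17, 11.6% in 18 to 23, 16.2% in 24 to 29, 28.4% in 30 to 34, 63.2% among the 1270 regions called in 35 and 71.5% among those called in 36. The step between 30 to 34 libraries and 35 libraries was wider than any other step in this series. Width, base composition and repeat content moved with it: shared regions had a median width of 810 bp (quartiles 679 and 978.5; lowest 206, highest 4585) against 323 bp in the others, a median GC content of 62.1% against 49.0%, a median CpG observed to expected ratio of 0.787 against 0.242, and a median repeat share of 4.85% against 9.15%. The CpG ratio exceeded 0.6, a usual limit for a CpG island, in 85.5% of shared regions and 11.6% of the others. Width is that of all merged peaks of a region, so it can only grow as more libraries add a peak. Within single libraries the peaks covered a median of 406 to 611 bp of a shared region. The part of merging in the width difference was not tested. Shared regions occurred on every main chromosome, from 423 on chromosome 2 and 391 on chromosome 7 to 136 on chromosome 19, 139 on X and 1 on Y, and 28 lay on contigs off the main chromosomes.

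**Figure D1:**
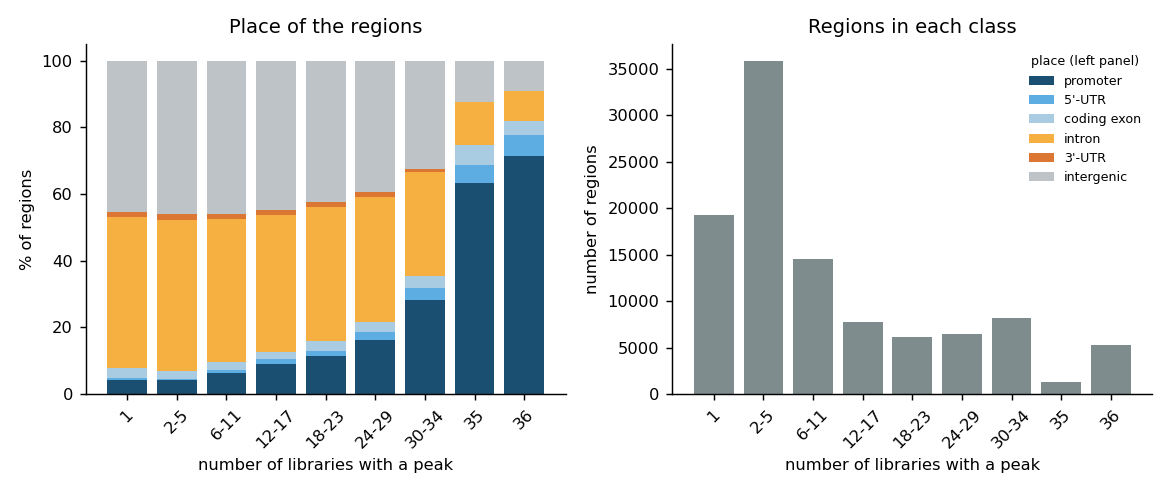
The left panel gives the share of regions (%) at promoters and other places for each class of regions, by the number of libraries (1 to 36) that called them, and the right panel gives the number of regions in each class. Promoters make up 4.34% of regions called in 1 library, 28.4% of those called in 30 to 34 and 71.5% of the 5335 called in 36.

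The calls of the MEP libraries set most of the boundary of the shared set. Of the 1270 regions that missed 1 library, 1126 (88.7%) missed an MEP library (373 and 295 for the young, 304 and 154 for the aged replicates), 88 an HSC library, 25 a CLP library, 19 an MPP library and 12 a GMP library. The lowest -log10 q-value of a shared region over its 36 libraries had a median of 9.77 and a minimum of 3.00, was under 5 in 440 regions, and was found in an MEP library for 4671 of them (87.6%). MEP libraries called between 9289 and 10667 regions each, GMP libraries 50850 to 61449, and shared regions made up 83.5% of the 6389 regions called in all 4 MEP libraries but 30.8% of the 17340 called in all 8 HSC libraries and 12.1% of the 43975 called in all 4 GMP libraries. Without the 4 MEP libraries 11159 regions would be shared, 52.6% of them at promoters. Requiring a -log10 q-value of at least 10 left 2587 regions, and requiring each library's peaks to cover 50% of the region left 1354.

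None of the 20 marker genes listed for HSCs, GMPs, MEPs and CLPs had a shared region at its promoter. Of the 5 genes listed for GMPs, peaks overlapped the promoters of Mpo, Elane, Ctsg and Cebpe, genes of granule proteins and their regulation, in all 4 GMP libraries, in at most 1 MPP3 and 1 MPP4 library, and in no HSC, MPP1, MPP2, MEP or CLP library, while the promoter of the granule protease gene Prtn3 was called in none of the 36. Of the genes listed for CLPs, the Il7r promoter, of the receptor that gates CLPs, was called in all 4 CLP, MPP4 and GMP libraries and in no other. Rag1 was called in 2 CLP libraries, Ebf1 in 29 libraries with all 8 HSC and 3 CLP libraries among them, and Dntt and Pax5 in none. Promoters of the erythroid genes Gata1, Klf1 and Epor were called in none of the libraries, MEPs included, so these defining markers do not identify the MEP libraries in the peak lists. Itga2b was called in 26 libraries but in none of MEPs. Of the genes listed for HSCs, the transcription factor genes Hlf and Meis1 were called in all 8 HSC libraries but in 33 and 31 in all. Procr was called in 4 HSC libraries and 9 in all, Mecom in 11 libraries but in no HSC library, and Slamf1 in none. For HSCs, MEPs and CLPs no listed promoter was called in every library of the fraction and in no other.

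The level at a region was its fold enrichment, the summit pileup plus 1 over the local background plus 1, taken at the highest summit. Over shared regions its library median was 7.52 to 7.77 in MEPs, 18.5 to 20.3 in GMPs and 11.6 to 15.5 in the other 28 libraries. Summit pileups followed the same order, with medians of 24 to 27 overlapping reads in MEPs, 91 to 107 in GMPs and 45 to 81 elsewhere, although reads had been subsampled to equal numbers. Levels are therefore compared below as relative fold enrichment, the value divided by the library's median over shared regions, and differences are log2 differences of it. Such a difference says how a region stood among the shared regions of the library, and cannot show whether all of them were more or less open. The spread of log2 levels within a library (interquartile range) also differed, at 0.53 to 0.54 in MEPs, 0.68 to 0.72 in GMPs and 0.63 to 0.71 in HSCs.

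**Figure D2:**
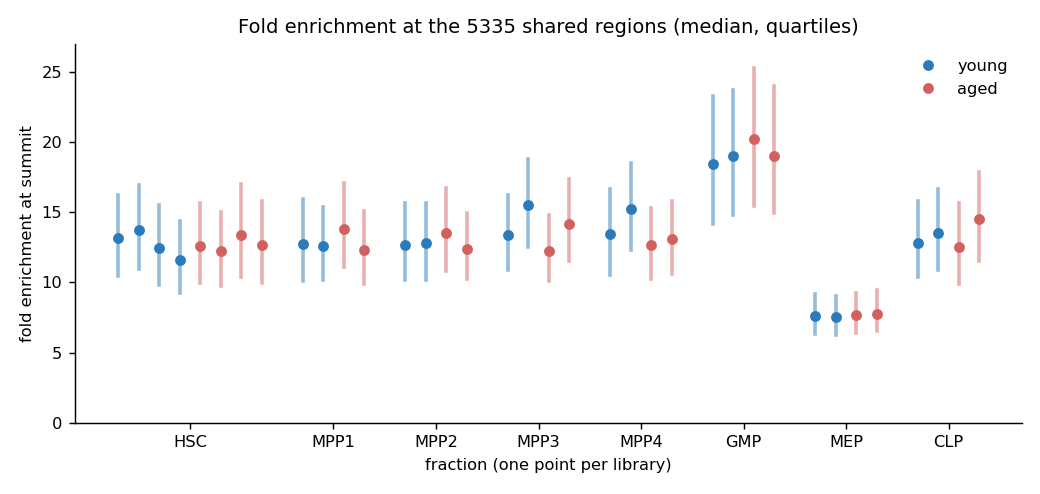
Fold enrichment (summit pileup over local background) at the 5335 shared regions in each library, by fraction and age, with points at the library medians and lines from the lower to the upper quartile. The 4 MEP libraries have medians of 7.52 to 7.77 and the 4 GMP libraries of 18.5 to 20.3, with the other 28 libraries between 11.6 and 15.5.

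Shared regions at start sites differed in composition and level from narrow regions without one, which were set apart here by a width under 400 bp. Regions with a protein-coding start had a median fold enrichment of 13 (quartiles 10.8 and 15.5), a median repeat share of 4.45% and a median GC content of 62.8%. Another 121 regions were under 400 bp wide and held no such start, and these had a median fold enrichment of 21.2 (quartiles 14.1 and 31.3), a median repeat share of 42.4% and a median GC content of 44.6%. The other 665 regions without a start were 400 bp or wider and lay nearer to the start-site regions, with a median fold enrichment of 12.2 (quartiles 9.92 and 15.5), a median repeat share of 7.59% and a median GC content of 57.2%. Only 1 region under 400 bp held a start. Among the 100 shared regions with the highest median fold enrichment, 83 had no protein-coding start, the median width was 396 bp, and 68 consisted of repeats over more than 20% of their length.

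The highest median fold enrichments were those of an intergenic region near Pak3 (chrX:143482885-143483240, -35528 bp from its start, a negative distance being upstream; 51.4, range over 36 libraries 46.6 to 71.2), an intronic region of Chl1 (chr6:103649023-103649411; 51.4, 48.9 to 68.8), a region near Abcb11 (chr2:69355412-69355797, -12989 bp; 49.3, 46.2 to 68.3), and regions on the unplaced contigs GL456389 (48.9) and GL456396 (48.9). Alignment with the mitochondrial genome at an E-value of at most 1e-10 matched 14 shared regions (0.264%) and 6 of the other regions (0.00603%), and 13 of the 14 held no protein-coding start. The widest shared region was 1 of these. It spanned 4585 bp between genes near Col19a1 (chr1:24611566-24616150), overlapped 7 annotated pseudogenes, was 99.956% identical to the mitochondrial genome along its length, and had a median pileup of 23423 reads but a median fold enrichment of 2.78. The next in width, 3935 bp near Esp38 (chr17:39843020-39846954), overlapped an rRNA gene and had a median fold enrichment of 2.66. The other 3 of the 5 widest lay at the starts of Ppp2r3d (2225 bp), Zbtb14 (2163 bp) and Csf2ra (2089 bp). Reads of near-identical copies cannot be told apart in these files, so the levels of the mitochondrial and rRNA matches are uncertain.

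**Figure D3:**
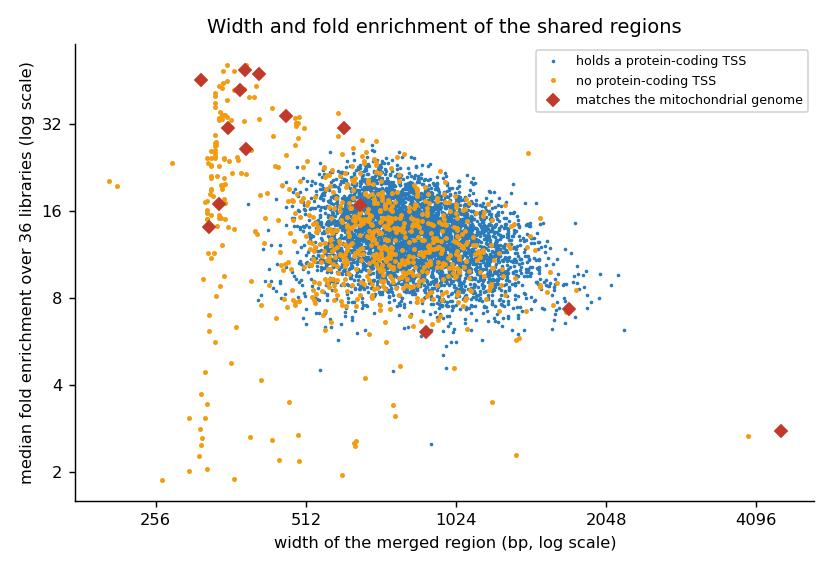
Median fold enrichment over 36 libraries against region width (bp, both axes log scaled) for the 5335 shared regions, with regions that hold a protein-coding start, regions that hold none and the 14 mitochondrial matches marked. The cloud of start-site regions lies around 826 bp and 13, and narrow regions without a start reach 51.4.

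Shared regions were most frequent at some lists of genes of general cell upkeep. Of 21840 protein-coding genes, 5274 (24.1%) had a shared region at their start or promoter. In the gene lists used here this share was 85.0% for aminoacyl-tRNA synthetases, which charge tRNAs (17 of 20, without Farsa, Kars and Vars), 83.3% for DNA replication genes (25 of 30, with Pcna, Mcm3 to Mcm6 and all of Orc1 to Orc6, without Mcm2, Mcm7, Prim1, Prim2 and Rfc2), and 80.0% for cohesin and CTCF genes, which fold chromosomes (8 of 10, without Nipbl and Stag2). It was 62.1% for replication-dependent histones (41 of 66 genes, in 24 regions, since the genes are clustered), 55.2% for splicing factors (32 of 58), 52.1% for proteasome subunits (25 of 48), 51.6% for oxidative phosphorylation (48 of 93), 50% each for translation factors (34 of 68) and for RNA polymerase II with its general factors (22 of 44), 44.0% for mitochondrial ribosomal proteins (33 of 75) and 39.7% for cytosolic ribosomal proteins (31 of 78). Zinc finger genes with Zfp names had 132 of 365 (36.2%). The lists were chosen with earlier results of these data known and carry no test.

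Blood transcription factors seldom had a shared region, whereas receptors, epigenetic regulators and immediate-early genes lay within the range of the upkeep lists. Of 26 listed blood transcription factors 2 (7.69%) had a shared region, Tal1 and Zfpm1, the partner of GATA proteins, while the promoters of Runx1, Spi1, Gata2, Cebpa, Ikzf1, Erg and Fli1 were not among them. None of the 9 genes for the sorting antigens, none of the 5 annotated primary granule genes and none of the 1091 olfactory receptors had one. Only 27 of the olfactory receptors had a region in any library. Cytokine receptors had 7 of 17 (41.2%), namely Csf2ra and Il3ra, the alpha chains of the GM-CSF and IL-3 receptors, Il6st, the shared signalling chain gp130, Tgfbr1, Ifnar1, Ifngr1 and Cxcr4. Epigenetic regulators had 9 of 16, or 56.3% (Dnmt1, Tet2, Asxl1, Asxl2, Ezh2, Eed, Suz12, Kdm6a and Setd2, without Dnmt3a), and immediate-early genes 9 of 17, or 52.9% (Fos, Jun, Jund, Egr1, Egr2, Dusp1, Klf2, Klf6 and Btg2, without Junb, Fosb and Atf3). The shared immediate-early regions had a median fold enrichment of 8.61 and the histone regions 9.42, against 13 over all regions of protein-coding genes.

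The letters under the summits differed in the same way between shared and other promoters. Within 100 bp of the median summit, on either strand, CCAAT was found in 42.6% of the 3813 shared promoters and 22.7% of the 8881 other promoters, the SP/KLF box in 21.7% and 13.7%, the ETS site in 7.87% and 3.61%, the CRE in 3.54% and 1.95%, the NRF1 site in 1.81% and 0.844%, the ZBTB33 site in 1.29% and 0.293%, the YY1 site in 1.13% and 0.833%, and the E-box CACGTG in 8.79% and 6.91%. Motifs of blood and stimulus-driven factors were found less often in shared promoters: PU.1 in 1.99% against 3.92%, C/EBP (TTNNGCAA) in 4.30% against 7.14%, AP-1 in 2.26% against 5.4% and RUNX (TGTGGTTT) in 0.629% against 1.71%. Outside promoters PU.1 letters were found in 1.81% of shared and 9.26% of other regions, and AP-1 letters in 3.55% and 12.4%. The core CTCF motif was found in 1.61% of shared regions outside promoters and 1.28% of the others. Regions were placed by their centre, so some of those outside promoters still held a start. Among regions with no protein-coding start the CTCF shares were 1.19% in shared and 1.29% in other regions, so no excess is read from them. Of the shared regions outside promoters with this motif, the 5 with the highest median fold enrichment lay at the starts of Gzf1 (19.3), Lsm11 (18.7), Zc3h15 (16.9) and Fitm2 (15) and upstream of Sema3b (15.2). Taken over all places, the shared regions are richer in G and C than the others. Among regions with a protein-coding start the median GC content was 62.8% in shared and 62.3% in other regions. The part of base composition in these shares was not tested.

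How far the level at a shared region varied between fractions was next examined by limma on the centred log2 fold enrichment. Over the 36 libraries a region's level had a median SD of 0.24 (log2; lowest 0.11, highest 0.68), the SD between replicates had a median of 0.19, and the range of the 8 fraction means had a median of 0.52 (lowest 0.08, highest 2.13). The moderated F-test among the 8 fractions, with Benjamini-Hochberg adjustment, passed an adjusted p of 0.05 in 3532 of 5335 regions (66.2%). Without the 4 MEP and 4 GMP libraries it passed in 13% of regions. The highest fraction mean was that of MEPs in 1596 regions (29.9%) and that of GMPs in 1357 (25.4%), and the lowest was that of GMPs in 1694 (31.8%) and that of MEPs in 1055 (19.8%). Regions without a protein-coding start had a median range of 0.69 between fraction means, and regions with one 0.50. Libraries of 1 fraction were on average 0.28 ± 0.03 apart (root mean square log2 difference, SD over 26 pairs) at the same age and 0.28 ± 0.03 (44 pairs) at different ages, and libraries of different fractions 0.37 ± 0.07 (560 pairs). Pairs that share a library are not independent.

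The most even promoter was that of Piga (chrX:164419321-164420022), an enzyme gene of the GPI anchor pathway, with an SD of 0.11 over the 36 libraries. Its relative fold enrichment was 1.12 to 1.51 in the 8 HSC libraries, 1.13 to 1.28 in the 4 GMP and 1.13 to 1.28 in the 4 MEP libraries, so that these fractions overlapped. The next were the promoter shared by Zfp277 and Dock4 (chr12:40445359-40446294; 0.11), Mad2l1, a spindle checkpoint gene (chr6:66534911-66535720; 0.11), the promoter shared by Txndc16 and Gpr137c (chr14:45219200-45219901; 0.11) and Cst3, the cystatin C gene (chr2:148875022-148876014; 0.11).

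A fraction was then set against the mean of the other 7, and a region was called when its adjusted p was under 0.05 and its log2 difference at least 0.5. On the centred scale GMPs stood apart most often, with 792 of 5335 regions called (14.8%), 331 higher (6.20%) and 461 lower (8.64%). Without centring the order turned, with 84.7% called in MEPs and 65.0% in GMPs. Near Scaf8, a gene of an RNA polymerase II binding protein, a region over the pseudogene Pisd-ps2 (chr17:3081500-3082705) had fold enrichments of 19.6 and 17.2 in young and 18 and 17.1 in aged GMPs. The other 32 libraries lay between 2.57 and 4.78 with a median of 3.46, so the groups did not overlap, and the difference was 1.74 ± 0.10 (log2, SE; adjusted p = 1.87e-15). The other largest gains were a region near Adnp (chr2:168169915-168170674, 36627 bp from its start), at 36.6 to 39.6 in GMPs against 6.64 to 20.1 elsewhere (1.11 ± 0.11), and the promoter of Ess2 (chr16:17911113-17911532), at 35.6 to 42.9 against 6.84 to 22.2 (1.07 ± 0.12). Reads of the pseudogene and of Pisd itself may be shared, so the value near Scaf8 is uncertain. It was also called higher in MEPs (0.62) and lower in MPP4 (-0.53).

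The regions lowest in GMPs included a region over a long non-coding RNA gene near Irf2, an interferon regulatory factor gene (chr8:46686696-46687266, -52751 bp). Its fold enrichment was 6.88 and 11 in young and 5.58 and 13.8 in aged GMPs, and 13.1 to 27.6 with a median of 19.7 in the other 32 libraries. The raw values of the groups overlapped slightly, the relative ones (0.276 to 0.726 against 0.910 to 2.13) did not, and the difference was -1.78 ± 0.14 (adjusted p = 1.3e-12). The promoter of Pxk (chr14:8097922-8098620) had 3.31 and 4.49 in young and 4.59 and 5.37 in aged GMPs against 5.22 to 14.3 elsewhere (-1.71 ± 0.10), with a slight overlap of the raw values and none of the relative ones (0.179 to 0.283 against 0.585 to 0.993). An intergenic region near Tnks (chr8:35134774-35135120, -169257 bp) had 8.34 to 11.1 against 12.1 to 29.2 (-1.70 ± 0.11). The regions near Irf2 (0.58) and Tnks (0.63) were called higher in MEPs. Called regions made up 12.9% of shared regions with a protein-coding start and 26.3% of those without. Of the 31 shared cytosolic ribosomal protein promoters 9 were called higher and 1 lower in GMPs, with a median difference of 0.18, and of the 34 translation factor promoters 6 were called higher and 1 lower, with a median of 0.17, against a median of -0.01 over all regions of protein-coding genes and against 6.20% of all shared regions called higher and 8.64% called lower. Without centring the calls were 3434 higher and 34 lower (median difference 0.63), and on summit pileups 1002 and 1348 (44.0% called).

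MEPs had 623 regions called (11.7%), 435 higher (8.15%) and 188 lower (3.52%) relative to the library median. The promoter of Myo6 (chr9:80164327-80165404), the gene of a myosin motor, had fold enrichments of 10.5 and 11.8 in young and 11 and 12.1 in aged MEPs against 7.08 to 14 in the other libraries. The fold enrichments overlapped, but relative to the library median they were 1.38 to 1.57 in MEPs and 0.467 to 0.952 elsewhere, a difference of 1.15 ± 0.10 (adjusted p = 1.71e-11). Larger differences were found only in a region of an Abhd6 intron made of repeats over 60.0% of its length (chr14:8005994-8006328; 1.29 ± 0.13) and at the end of the unplaced contig GL456370 (1.26 ± 0.17). The Abhd6 region was called lower in GMPs (-0.78), HSCs (-0.65) and MPP1 (-0.58). Without centring the difference of the Myo6 promoter was 0.29, that of the Abhd6 intron 0.43 and that of the contig 0.40, each under the size limit.

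Among the regions farthest below the others in MEPs were the promoters of Rgs18 and Gtpbp10. Rgs18, which encodes a regulator of G protein signalling of blood cells and platelets (chr1:144775237-144775783), had fold enrichments of 5 and 4.70 in young and 7.54 and 6.11 in aged MEPs, and 13.4 to 36.6 with a median of 19.7 in the other 32 libraries. Every MEP library lay below every other library, also relative to the library median (0.625 to 0.985 against 1.09 to 2.59; -1.04 ± 0.11, adjusted p = 1.32e-09). The promoter of Gtpbp10 (chr5:5559223-5559867), a gene of mitochondrial ribosome assembly, had 5.43 to 7.56 in MEPs against 17.8 to 32.7 in the other libraries (-1.0 ± 0.08), and the groups did not overlap, also relative to the library median (0.699 to 1.01 against 1.33 to 2.04).

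The direction of the MEP calls moved with the level of the region elsewhere. When shared regions were ranked by their median fold enrichment in the other libraries outside GMPs and MEPs, the lowest 1779 held 282 higher calls and 1 lower call (median difference 0.22), the middle 1778 held 45 and 31, and the highest 1778 held 108 and 156 (median -0.10). Across the 5335 regions, which share libraries and scaling, the log2 difference and the log2 level had r = -0.40 for MEPs and -0.14 for GMPs. Forcing all libraries to 1 distribution by quantile normalisation, chosen after seeing the data, gave 254 higher and 299 lower MEP calls (439 of the 623 calls kept) and 345 and 311 GMP calls (624 of 792 kept). Without centring 4519 MEP calls were lower and 0 higher (median -0.82), and on summit pileups there were 1083 higher and 604 lower. A region had to be called in all 4 MEP libraries to be shared, and an MEP library gave the lowest -log10 q-value in 87.6% of shared regions, so regions low both in MEPs and elsewhere were left out by the rule itself. The split by level is therefore a description of the shared set and nothing more is read from it. The part of pileup depth in the MEP differences was not tested.

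Narrow and repeat-rich regions were often called higher in MEPs and lower in GMPs. Of the 121 regions under 400 bp without a protein-coding start, 90 were called higher and 1 lower in MEPs (median 0.63), and 9 higher and 69 lower in GMPs (median -0.64). Of the 90 regions made of repeats over more than 50% of their length 77 were called higher in MEPs and 50 lower in GMPs, with no opposite call. Of the 14 mitochondrial matches 12 were called higher in MEPs. Of the 4549 regions with a protein-coding start, 239 were called higher and 152 lower in MEPs, which is 8.60% of them against 29.5% of the regions without one. The median fold enrichment of the 121 narrow regions was 17.3 in MEPs and 21.6 in the other libraries, and that of regions with a protein-coding start 7.63 and 13.6.

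**Figure D4:**
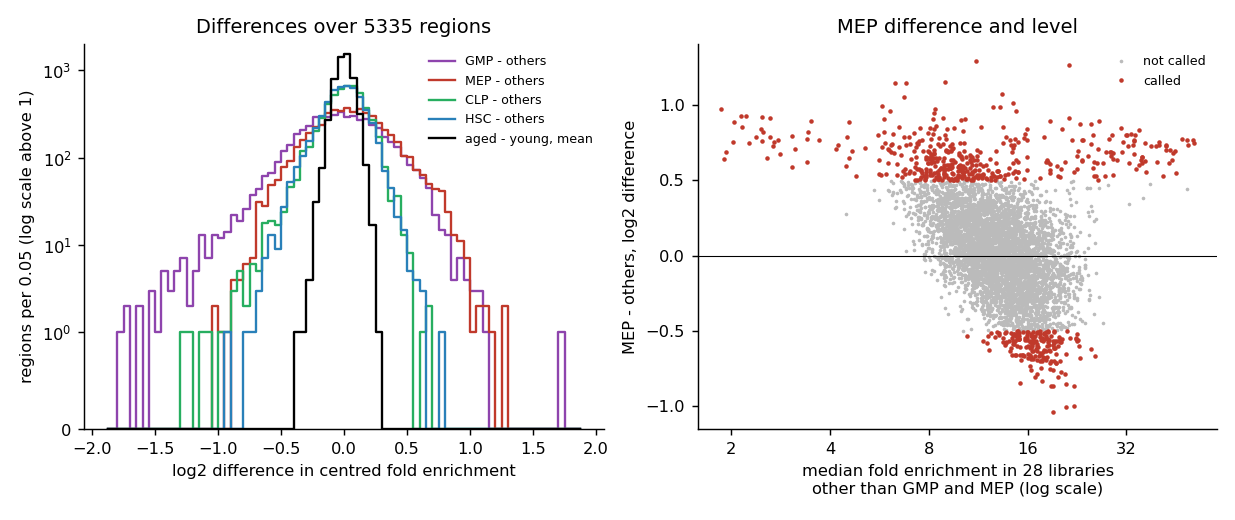
The left panel is a histogram (counts on a log axis above 1) of the log2 differences of GMPs, MEPs, CLPs and HSCs from the mean of the other 7 fractions, and of the mean aged minus young difference, over 5335 shared regions; the right panel plots the MEP difference against the median fold enrichment in the 28 libraries outside GMPs and MEPs. GMP and MEP differences spread widest (median sizes 0.23 and 0.20, against 0.11 in HSCs), and the MEP difference falls as the level rises (r = -0.40) except in a band of called regions at the highest levels.

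CLPs had 92 regions called (1.72%), 11 higher (0.206%) and 81 lower (1.52%). An intronic region of Ldlrad3, a gene of an LDL receptor-like protein (chr2:102037000-102037577), had fold enrichments of 5.55 and 6.05 in young and 4.73 and 6.04 in aged CLPs and 5.69 to 19.6 elsewhere. Relative to the library median the values were 0.378 to 0.448 in CLPs, 0.538 to 0.771 in MPP4, the multipotent fraction described as lymphoid-primed, and 0.743 to 1.45 in the other 6 fractions, so CLPs lay below all others and MPP4 next to them. The CLP difference was -1.22 ± 0.10 (adjusted p = 1.18e-10). A region near Tbc1d31 (chr15:57906532-57907150, -5358 bp) had 4.61 to 7.20 in CLPs against 5.88 to 32.1 (-1.26 ± 0.15), and the promoter of Vamp8, a SNARE gene of granule release (chr6:72389490-72390716), 5.89 to 8.43 against 6.34 to 23.1 (-1.10 ± 0.11). These 2 overlapped other libraries. Ldlrad3 was also called higher in MPP1 (0.51) and MPP2 (0.50), Tbc1d31 in GMPs (0.67) and Vamp8 in HSCs (0.60), MPP1 (0.55) and MPP2 (0.54).

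Of the 11 regions higher in CLPs 8 held a protein-coding start. The promoter of Fyn, a Src family kinase gene of T cell signalling (chr10:39369395-39370025), had a relative fold enrichment of 1.18 to 1.34 in CLPs and 0.456 to 1.19 in the others, of which 1 reached the CLP range (0.66 ± 0.11, adjusted p = 6.11e-05). A region near Tnfaip3, which encodes the NF-kB inhibitor A20 (chr10:19062040-19062935, -47078 bp), had 1.06 to 1.45 in CLPs, 1.08 to 1.29 in MPP4 and 0.337 to 0.939 in the other 6 fractions. It was called in both CLPs (0.66 ± 0.11) and MPP4 (0.62 ± 0.11), which were each compared with a mean that held the other, and with the mean over the summits of the region in place of the highest summit the differences were 0.28 and 0.42 and neither was called. It was called lower in HSCs (-0.66). The promoter of Bhlha15, the gene of the secretory cell factor MIST1 (chr5:144189785-144190486), was at 0.950 to 1.00 against 0.337 to 1.05 (0.61 ± 0.12) and was called lower in HSCs (-0.57) and GMPs (-0.74). On summit pileups 7.76% of shared regions were called in CLPs, and among regions with a -log10 q-value of at least 10 in every library 0.618%.

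HSCs had 48 regions called (0.900%), 13 higher (0.244%) and 35 lower (0.656%). An intergenic region near Haao, a gene of the kynurenine pathway (chr17:83962026-83962483, -115443 bp), had fold enrichments of 20.3 to 24.8 with a median of 23.5 in the 8 HSC libraries. Its relative level had medians of 1.77 in HSCs, of 1.80, 1.63, 1.45 and 1.29 in the multipotent fractions from MPP1 to MPP4, 0.812 in CLPs, 0.703 in MEPs and 0.493 in GMPs. HSC (1.71 to 1.99), MPP1 (1.74 to 1.91) and MPP2 (1.57 to 1.83) overlapped, and every HSC and MPP library lay above every CLP, MEP and GMP library. It was called higher in HSCs (0.75 ± 0.07, adjusted p = 2.39e-09), in MPP1 (0.76 ± 0.09) and in MPP2 (0.62 ± 0.09), and lower in GMPs (-1.33), MEPs (-0.79) and CLPs (-0.61). A region over a lincRNA gene near Tusc1 (chr4:93481124-93481766, -145934 bp) was called higher in HSCs (0.63 ± 0.07) and MPP2 (0.72 ± 0.09) and lower in CLPs (-1.07) and MPP4 (-0.61). The Rogdi promoter (chr16:5013276-5013883) was called higher in HSCs (0.62 ± 0.07) and lower in MEPs (-0.75).

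Lower in HSCs were a region near Ccnc, the cyclin C gene (chr4:21712159-21712632, -15305 bp), at 5.35 to 14.7 with a median of 9.95 against 6.93 to 32.1 with a median of 19.9 (-0.92 ± 0.11, adjusted p = 2.85e-07), the promoter shared by S100pbp and the tyrosyl-tRNA synthetase gene Yars (chr4:129188920-129190115), at 5.83 to 8.56 against 6.32 to 29.4 (-0.79 ± 0.10), and the promoter of Usp8, a deubiquitinase gene (chr2:126707079-126707715), at 7.03 to 10.7 against 8.88 to 27.7 (-0.70 ± 0.08). With the replicate number as a block the Usp8 difference was -0.499, and -0.49 with GC content as well, both short of the size limit. All 3 overlapped other libraries. The S100pbp and Yars promoter was also called lower in MPP1 (-0.59) and higher in GMPs (0.76). Of the called regions 31 held a protein-coding start (0.681% of such regions) and 17 did not (2.16%). On summit pileups 13.2% of shared regions were called, 340 higher and 364 lower, with the mean over summits 1.42% (37 higher and 39 lower), and among regions with a -log10 q-value of at least 10 in every library 0.348%.

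The multipotent fractions stood apart least on the centred fold enrichment, but on summit pileups MPP1 (11.6%) had more regions called than CLPs (7.76%). In MPP1 39 regions were called (0.731%), 14 higher (0.262%) and 25 lower (0.469%). Besides the Haao region, an intronic region of Prkce, a protein kinase C gene (chr17:86300722-86301754; 0.60 ± 0.11), and the promoter of Ttc39b (chr4:83323671-83324627; 0.60 ± 0.11) were highest above the other fractions, and an intronic region of Nr1d1, which encodes the clock repressor REV-ERB alpha (chr11:98773652-98774312; -0.70 ± 0.11), a region near Ptma (chr1:86487168-86487980; -0.68 ± 0.13) and the promoter of Ubap2l (chr3:90052212-90053044; -0.66 ± 0.14) farthest below. All 5 overlapped other libraries. The Prkce region was also called higher in MPP2 (0.51) and lower in MPP4 (-0.53) and CLPs (-0.75), and Ttc39b lower in CLPs (-0.83). The regions low in MPP1 were called higher in MEPs at Nr1d1 (0.54) and Ubap2l (0.61) and in GMPs at Ptma (0.71). In MPP2 12 regions were called (0.225%), 7 higher (0.131%) and 5 lower (0.0937%), among the lower ones the promoters of Ttyh3 (chr5:140648698-140649466; -0.69 ± 0.14), Hp1bp3 (chr4:138216269-138217509; -0.66 ± 0.14) and Atp5h (chr11:115419703-115420386; -0.55 ± 0.13). At these promoters 8, 4 and 11 other libraries reached into the MPP2 range. MPP4 had 9 called (0.169%), 1 higher (0.0187%), the Tnfaip3 region, and 8 lower (0.150%), none with a protein-coding start, with the farthest near Apbb1ip (chr2:22744279-22745236; -0.69 ± 0.12), Ddx18 (chr1:122357042-122357371, -789218 bp; -0.68 ± 0.16) and Myl12b (chr17:70963549-70963906; -0.67 ± 0.11). Of the other 32 libraries 11, 16 and 8 reached into the MPP4 range at these regions, and the same regions were called higher in MEPs (0.99, 0.73 and 0.86) and in GMPs (0.52, 0.80 and 0.53). MPP3 had 2 called (0.0375%), a region inside the helicase gene Mcm7 at the Ap4m1 promoter (chr5:138170926-138171572; 0.53 ± 0.12) and a region of the contig GL456389 (-0.52 ± 0.06, but 0.01 on summit pileups). Many of the regions named for these fractions lost their call under an alternative. With the mean over summits this held for Ttc39b, Ttyh3, Hp1bp3, Atp5h, Mcm7, Apbb1ip and Ddx18 (adjusted p = 0.0624 to 0.357 by limma). Of these the difference fell below the size limit at Hp1bp3 (-0.44) and stayed above it at the others, as at Ttc39b (0.67), Ttyh3 (-0.67), Apbb1ip (-0.69) and Ddx18 (-0.69). Without centring it held for Atp5h (-0.56), Apbb1ip (-0.61), Ddx18 (-0.59) and GL456389 (-0.41). With GC correction, alone or with the replicate block, it held for Mcm7 (0.53 and 0.52) and Ddx18 (-0.67 and -0.64), whose differences stayed about as large. It also held on summit pileups for Ttyh3 (-0.42). The call of Ddx18 was lost when any 1 of 16 libraries was left out (differences -0.79 to -0.56). That of Atp5h was lost with any 1 of 8 left out (-0.68 to -0.43). That of Mcm7 did not survive the loss of any MPP3 library (0.46 to 0.59). Ttyh3 (-0.72 to -0.55) and Hp1bp3 (-0.70 to -0.62) were not called without young MPP2 replicate 1 or 2 or aged MPP2 replicate 1, though their differences stayed past the size limit. Apbb1ip (-0.63 to -0.57) and Tnfaip3 (0.55 to 0.60) were not called in MPP4 without young or aged replicate 1. GL456389 was not called without young or aged MPP3 replicate 2 (-0.48 to -0.46). Ubap2l (-0.55 to -0.52) was not called without young or aged MPP1 replicate 1, and Ptma (-0.59) without the young one. The counts depended on single libraries too: MPP1 had 0.431% called without young replicate 1, MPP2 between 0.0750% (without aged replicate 1) and 0.431% (without aged replicate 2), MPP3 between 0% (without young or aged replicate 2) and 0.225% (without young replicate 1), and MPP4 between 0.0562% (without aged replicate 1) and 0.281% (without young replicate 2). On summit pileups the shares were 11.6%, 4.46%, 0.375% and 1.46%.

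**Figure D5:**
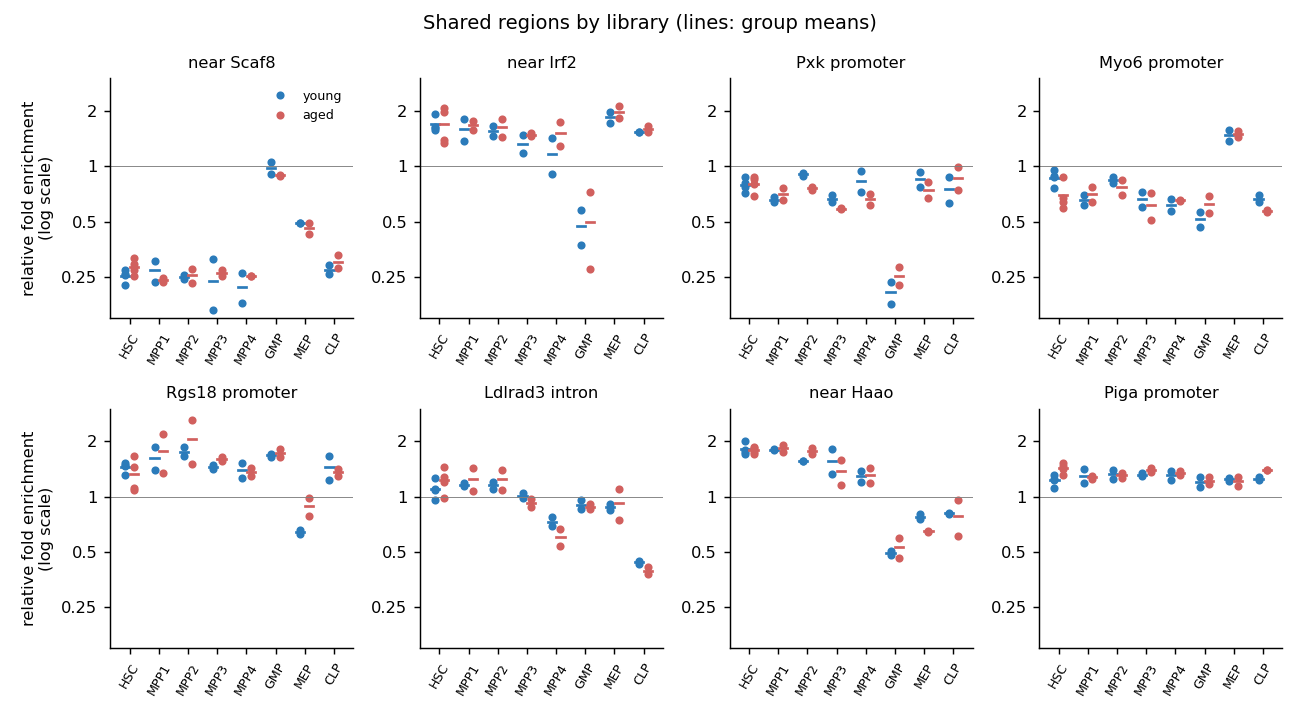
Relative fold enrichment (fold enrichment over the library's median at shared regions, log axis) at 8 shared regions in each of the 36 libraries, by fraction, with young and aged libraries marked and lines at the group means. The region near Haao steps down from a median of 1.77 in HSCs to 0.493 in GMPs, the regions near Irf2 and at Pxk are low in GMPs, Rgs18 is low in MEPs, and Piga stays between 1.12 and 1.51.

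Among the short lists most called regions were those of MEPs. Immediate-early genes had 4 of 9 regions called higher in MEPs with a median difference of 0.48, against 8.15% of all shared regions called higher and a median of 0.03 over all regions of protein-coding genes. Regions of low level were called higher in MEPs more often in general, at 282 of the 1779 lowest regions with a median of 0.22. Nothing is read from the count about these genes. Egr1, a zinc finger factor induced by growth signals, had a relative fold enrichment of 0.845 to 1.26 in MEPs and 0.296 to 0.733 in the other 32 libraries, without overlap (1.06 ± 0.12, adjusted p = 5.58e-09; 0.19 without centring), and of 0.316 to 0.386 in GMPs (-0.70 ± 0.12; -0.05 without centring, and not called with the mean over summits, at -0.47, or quantile normalisation, at -0.43). On summit pileups its MEP difference was 0.28 and not called. Fos (0.71 ± 0.11), Egr2 (0.52 ± 0.11) and Dusp1 (0.54 ± 0.11), like Zfpm1 (0.57 ± 0.10), Tet2 (0.57 ± 0.11) and the cohesin cofactor gene Pds5a (0.50 ± 0.11), were higher in MEPs relative to the library median. Without centring, which moved the median MEP difference of all shared regions from 0.05 to -0.82, they stood at -0.15, -0.34, -0.32, -0.30, -0.30 and -0.36, above that median and within the size limit. Their relative values overlapped those of other fractions, with 1 other library reaching the MEP range at Fos and Dusp1, 2 at Zfpm1 and 4 at Egr2, Tet2 and Pds5a. These were low-level regions, with medians over the libraries of 6.19 for Fos, 6.83 for Egr1 and 7.63 for Tet2. Some of these calls were lost under other alternatives. That of Pds5a was lost with the replicate block (0.48), GC correction (0.36) or quantile normalisation (0.42) and when any 1 of 18 libraries was left out (0.41 to 0.499). Those of Tet2 (0.11), Fos (0.29), Egr2 (0.27) and Dusp1 (0.42) were lost on summit pileups, those of Tet2 (0.48) and Dusp1 (0.42) with quantile normalisation, and that of Zfpm1 with the mean over summits (0.36). Without young MEP replicate 2 the calls of Tet2, Egr2 and Dusp1 were lost, and without aged MEP replicate 2 those of Tet2 and Egr2 (0.37 to 0.49 in all). Replication-dependent histone regions had 6 of 24 called higher in MEPs and 0 lower, with a median of 0.23 that was close to the 0.22 of the 1779 lowest regions. Smc1a, a cohesin ring gene, was lower in MEPs (-0.69 ± 0.10), but not called with the mean over summits (-0.46). Its relative fold enrichment was 0.609 to 0.934 in MEPs and 0.891 to 1.70 elsewhere, with 1 other library inside the MEP range. Asxl1 was also lower (-0.66 ± 0.09), at relative values of 0.583 to 0.981 against 0.938 to 1.37, with 2 other libraries inside the MEP range. Asxl1 was not called without young MEP replicate 2 (-0.49) or aged MEP replicate 2 (-0.47), nor on summit pileups (-0.26). In HSCs Jund was lower (-0.52 ± 0.08), close to the size limit, and not called with the replicate block (-0.42), block and GC correction (-0.40), GC correction (-0.499), summit pileups (-0.36) or quantile normalisation (-0.49), or without young HSC replicate 3 (-0.49). None of the 7 cytokine receptor regions was called in any fraction, a list too short to be read against the 14.8% of all shared regions called in GMPs and the 11.7% called in MEPs.

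Whether the level at shared regions changed with age was tested as the mean of aged minus young over the 8 fractions. By limma 0 of 5335 regions (0%) passed an adjusted p of 0.05, 303 had an unadjusted p under 0.05 and the smallest adjusted p was 0.0991. The differences ran from -0.35 to 0.25 (log2) with a median SE of 0.06, and 5280 regions (99.0%) differed by less than 0.2. In 5334 regions the difference with 2 SE added stayed under 0.5. On summit pileups 0.187% were called, with the replicate number and GC content in the fit 0.0565%, and leaving out 1 library gave 0.0375% without young HSC replicate 3 or aged MPP1 replicate 1 and 0.0187% without aged MPP2 replicate 1 or aged MPP3 replicate 2. The smallest p-values, none passing, were those of the promoter of Eml4, a microtubule protein gene (chr17:83350414-83351341; -0.30 ± 0.06, adjusted p = 0.0991), a region near Ifna13 and a region near Mc2r. These were the regions that passed with the replicate number and GC content in the fit (adjusted p = 0.0350 for Eml4 and Ifna13 and 0.0437 for Mc2r by limma). Eml4 also passed on summit pileups (-0.40, adjusted p = 0.0106 by limma) and without young HSC replicate 3 (-0.32, adjusted p = 0.0329). Mc2r passed on summit pileups too, and without any 1 of the 4 libraries named above. A test of whether the age difference itself differed among fractions called 0 of 5335 (0%), with 261 at an unadjusted p under 0.05 and a smallest adjusted p of 0.147. It called 0.0187% without aged GMP replicate 2 or with quantile normalisation.

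Within single fractions the fit ran over all regions called in every library of the fraction. In HSCs it called 8 of 17340 regions (0.0461%), 7 higher (0.0404%) and 1 lower (0.00577%) in aged cells, and 0 of the 5335 shared regions, of which 279 had an unadjusted p under 0.05. All 8 thus lay among the other 12005 regions (0.0666% of them, against 0% of the shared ones). Shared regions were 30.8% of those tested, and with so few calls nothing is read from this. The shared region with the smallest p was the promoter of Tamm41, a mitochondrial cardiolipin synthesis gene (chr6:115037520-115038178), with fold enrichments of 16.8, 13.7, 14.2 and 14 in young and 9.14, 10.9, 6.42 and 6.78 in aged HSCs. The groups did not overlap, yet the difference of -0.83 did not pass (adjusted p = 0.114 by limma). It passed in a single fit of the 36 libraries (-0.85, adjusted p = 0.0357) and with HSC replicates 3 and 4 alone (-1.20, adjusted p = 0.0244). The median SE of the difference was 0.15 in HSCs with 4 libraries per age. On simulated data the HSC fit recovered 3% of changes of 0.5 (log2) and 74% of changes of 1, so a miss in HSCs does not show that ages were alike. In the other fractions limma passed no shared region. At an unadjusted p under 0.05 there were 131 shared regions for MPP1, 163 for MPP2, 103 for MPP3, 201 for MPP4, 113 for GMPs, 267 for MEPs and 199 for CLPs. With 2 libraries per age the median SE was 0.16 in GMPs and 0.22 in MEPs, and on simulated data the fits of these fractions recovered 0% of changes of 0.5 or 1. A miss here does not show that ages were alike. Background shares over all regions of those fractions were 0% in MPP1 to MPP4, MEPs and CLPs and 0.00227% in GMPs. A single fit of the 36 libraries called 0.0375% of shared regions in HSCs and 0.131% in MEPs, and summit pileups gave 0.281% in HSCs, 0.0187% in MPP1 and 0.0375% in GMPs. HSC replicates 1 and 2 alone gave 0.0562% and replicates 3 and 4 alone 0.150%. The median size of the aged and young difference in HSCs was 0.10 at shared regions and 0.15 at the other 12005 regions tested. The order was the same in every other fraction, as in MPP1 (0.12 and 0.17) and CLPs (0.12 and 0.18), where no region was called. Such sizes also hold the spread between libraries, so nothing about age is read from them.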

How the data were processed

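Open chromatin was measured by ATAC-seq in 36 libraries (60 bp single reads, fragments of 240 to 360 bp). The authors aligned reads to mm10 with Bowtie2, subsampled them to equal numbers with SAMtools and called peaks per library with MACS2 2.2.6 (q-value limit of 0.001). The deposited lists give each summit's fold enrichment (a ratio), -log10 p-value, -log10 q-value and a score. Read totals are not in the lists, so depth is given as the summit pileup, recovered from fold enrichment and p-value (pseudocount 1).

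Regions were placed on GENCODE genes and motifs searched in the mm10 reference. Highest-summit log2 fold enrichment, centred on the library median over the regions fitted, was tested by limma 3.58.1 (R 4.3.3, trend) in 1 fit of 16 groups, or within a fraction for its age difference, with Benjamini-Hochberg adjustment over all regions fitted. The code was tested on simulated data. Alternatives changed the summit, centring, scale, GC correction, replicate block and libraries.

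Named were the top 5 regions by level, evenness, width or CTCF motif outside promoters, the 3 largest called differences per fraction and direction, the 3 smallest age p-values where none passed, and shared promoters of 6 short gene lists, each under its nearest protein-coding start; some regions that the rule names are not reported here. The shared regions, gene lists and tests were chosen with earlier results of these data known.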

Additional observations from a re-analysis of the deposited data

Results flagged for a closer look

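In groups of 4 HSC libraries, 0 of the 30 group values looked at had a library that stood apart from the others by Dixon's test.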

How the results depend on the processing

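Shares of shared regions called depended mostly on the scale and on single libraries, and the cause was not tested. Without centring MPP4 had 0.0937%, GMPs 65.0% and MEPs 84.7% called. On summit pileups HSCs had 13.2%, MPP1 11.6%, MPP2 4.46%, MPP3 0.375%, MPP4 1.46%, GMPs 44%, MEPs 31.6% and CLPs 7.76%, and for age 0.187% (mean), 0.281% (HSCs), 0.0187% (MPP1) and 0.0375% (GMPs). The mean over summits gave 1.42% in HSCs, 0.0562% in MPP2 and 0.131% in MPP3, and the GC correction 0% in MPP3. Regions with a -log10 q-value of at least 10 throughout gave 0.348% in HSCs, 0.193% in MPP1, 0.0773% in MPP2 and 0.618% in CLPs. A single fit of 16 groups gave 0.0375% (HSCs) and 0.131% (MEPs) for age, HSC replicates 1 and 2 alone 0.0562% and replicates 3 and 4 alone 0.150%. Alternatives chosen after seeing the data were quantile normalisation, which gave 0.0187% for the age difference among fractions, the F-test without MEP and GMP libraries (13%), and the number of shared regions without MEP libraries (11159). That number was 2587 with the stricter q-value and 1354 with 50% coverage, and the CTCF share 0.937% within 50 bp, since less was kept or searched.

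Leaving out 1 library gave 59.4% to 67.3% for the F-test, 0.825% to 1.18% for HSCs, 0.431% to 0.918% for MPP1, 0.0750% to 0.431% for MPP2, 0% to 0.225% for MPP3, 0.0562% to 0.281% for MPP4, 14.5% to 15.8% for GMPs, 11.5% to 13.3% for MEPs, 1.61% to 2.14% for CLPs, and 5335 to 5708 shared regions. For age it gave 0% to 0.0375% for the mean, 0% to 0.0187% for the difference among fractions, 0% to 0.0375% in MPP1 (without aged replicate 2), 0% to 0.0187% in MPP2 (without aged replicate 1), 0% to 0.0562% in MPP3 (without young replicate 2), 0% to 0.169% in MPP4 (without young replicate 1), 0% to 0.0375% in MEPs (without young replicate 1) and 0% in HSCs, GMPs and CLPs. Where 1 library of an arm was left, it was assumed to vary like the others.

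Replicate numbers were not taken to pair the libraries, since nothing in the labels ties them and same-numbered HSC libraries had correlations of 0.08, 0.09, 0.18 and -0.08 between their deviations. Young HSC replicate 3 went with aged replicates 3 (0.18) and 4 (0.19) and against 1 (-0.20) and 2 (-0.17). In the other fractions, with 2 libraries per age, the same-number correlation ran from -0.01 in MPP4 to 0.14 in MPP3 and was above 0 in all but MPP4. With the replicate number as a block the age shares were 0.0187% in MPP2, 0.0187% in MPP4 and 0.0375% in MEPs, and with the block and the GC correction 0.0565% for the age mean, 0.0188% in MPP2, 0.0377% in MPP4, 0.0377% in MEPs and 0% for MPP3 against the others.

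Without centring the median MEP difference of all shared regions moved from 0.05 to -0.82, and with it the sign at Zfpm1 (-0.30), Pds5a (-0.36), Fos (-0.15), Egr2 (-0.34), Dusp1 (-0.32) and Tet2 (-0.30) in MEPs, each above that median. On summit pileups the direction reversed at the GL456389 region in MPP3 (0.011). The median summit pileup at shared regions was 24 to 27 reads in MEP libraries, the lowest of all fractions.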
